A study of Mus musculus with 16 samples.

Results

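Collagen genes were taken as all genes whose symbol has the form Col, a number, the letter a and a number, and that had a count above 0 in at least 1 tumor. There were 44 of them among the 21854 genes that met the same count rule, and 39 of the 44 averaged 50 or more counts over the tumors. They were measured by bulk RNA-seq in 16 primary rhabdoid tumors, each from a different Smarcb1flox/flox;R26-CreERT2 mouse, a model in which a Cre expressed from the ubiquitous Rosa26 locus acts once tamoxifen is given. All 16 mice carried both alleles and received tamoxifen as embryos, so no mouse served as an uninduced control. The 5 intra-CNS tumors, within the brain parenchyma, were all induced at E6 and came from mice aged 30 to 180 days. The 6 intracranial extra-CNS tumors lay inside the skull but outside the parenchyma, were induced at E6 (1 tumor), E7 (1) or E8 (4), and came from mice aged 52 to 170 days. The 5 extracranial tumors, from the back, jaw, nose and mouth, were induced at E6 (1 tumor) or E8 (4) in mice aged 80 to 210 days. The study assigned the intra-CNS tumors to its Shh subgroup and the 11 extra-CNS tumors to its Myc subgroup, so that subgroup and location cannot be told apart here. Tumors are called by the name of the mouse.

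Collagens are proteins of the extracellular matrix in which polypeptide chains are wound into a triple helix. Fibrillar collagens such as types I, III and V form the tensile fibres of skin, bone and stroma, and types II and XI those of cartilage and the vitreous. Type IV collagen forms the sheet of the basement membrane, where types XV and XVIII are also found. Type VI forms beaded microfilaments, types VIII and X form networks, FACIT collagens such as IX, XII, XIV and XVI attach to the surface of fibrils, and types XIII, XVII, XXIII and XXV span the cell membrane. The brain parenchyma holds little fibrillar collagen, which lies mainly in meninges and large vessels, whereas its capillaries rest on a basement membrane with type IV collagen.

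Total counts ranged from 17889968 to 110177889 per tumor. Smarcb1, the targeted gene, was at 58.1 TPM (a level scaled for gene length and sequencing depth) in 29048, 43.7 in R26P115 and 3.99 to 26.1 in the other 14 tumors, with medians of 7.08 in intra-CNS and 12.2 in extra-CNS tumors. This value covers the whole gene and does not separate the deleted exons, so it is no check of the deletion. Because pieces of tumor were sequenced whole, fewer cells of a type and less RNA per cell cannot be told apart in any value below. The intracranial extra-CNS tumor R26P115 stood apart in genes known from choroid plexus epithelium, a list chosen after the data were seen, and fits without it are given where they changed a call. In R26P115 Kl was at 1766 TPM, Folr1 at 1178 and Enpp2 at 48046, and in the other 10 extra-CNS tumors these genes did not exceed 25.9 TPM. Over the 6 genes of that list the summed level was 276 to 1014 TPM in the intra-CNS tumors, with 29048 highest, where Enpp2 was at 29.5 to 797 TPM, Kl at 29.9 TPM in 29048 and at most 1.30 TPM in the other 4. Otx2, a transcription factor of the list that is also known outside this epithelium, was at 112 to 341 TPM in the 5 intra-CNS tumors, 387 TPM in R26P115 and at most 0.704 TPM in the other 10. The part of these genes in the collagen values was not tested. The intra-CNS tumor 29048 had the highest summed oligodendrocyte marker level, 6295 TPM against 42.2 to 154 TPM in the other 15 tumors. The label of 43990A gives the nose as its site, and a list in the study gives it as intracranial.

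Collagen genes together took up a larger part of the RNA outside the parenchyma. They made up 0.153% of counts in 29048 (95% Wilson interval 0.152% to 0.155%), the lowest tumor, and 0.349% in R26P98, the highest of the intra-CNS tumors. In the extra-CNS tumors the share ran from 0.353% in R26P115 to 2.35% in R26P123, so that the 2 groups met but did not overlap. The mean was 0.217% ± 0.0779 (SD, n = 5) in intra-CNS, 0.984% ± 0.709 (SD, n = 6) in intracranial extra-CNS and 1.59% ± 0.512 (SD, n = 5) in extracranial tumors. These sums over the chosen genes are given without a test.

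**Figure D1:**
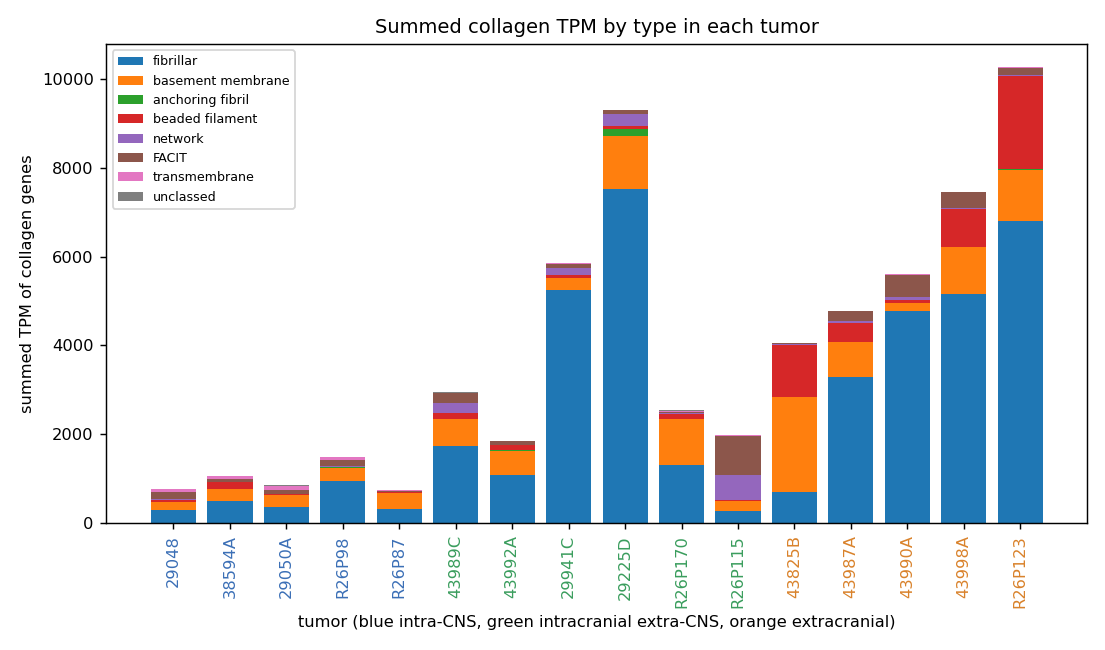
Summed TPM of collagen genes (vertical axis) in each of 16 tumors (horizontal axis, in the order of the site groups), with each bar divided by collagen type. The 5 intra-CNS bars reach 732 to 1478 TPM and the 11 extra-CNS bars 1838 to 10280.1 TPM.

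The mixture of types varied widely between single tumors. The 11 fibrillar genes gave a mean share of 46.0% ± 10.1 (SD, n = 5) of the summed collagen TPM in intra-CNS, 58.7% ± 26.9 (SD, n = 6) in intracranial extra-CNS and 61.2% ± 25.9 (SD, n = 5) in extracranial tumors. The 8 basement membrane genes gave 29.6% ± 11.2, 20.0% ± 13.2 and 19.7% ± 19.3 in the same order. In 43825B, from the back, basement membrane genes made up 53.1% and fibrillar genes 16.7%, whereas in 29941C fibrillar genes made up 89.8%. In R26P115 FACIT genes made up 44.3% and network genes 29.1%, with fibrillar genes at 12.8%. The 4 transmembrane genes held 2.68% to 12.0% in intra-CNS and 0.0159% to 0.960% in extra-CNS tumors, with no overlap in share. In summed TPM they did overlap, at 19.6 to 101 TPM in intra-CNS and 1.42 to 23.0 TPM in extra-CNS tumors.

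The collagen gene of highest TPM was Col1a2 in 8 of the 11 extra-CNS tumors, with 22.7% to 48.7% of the summed collagen TPM. The other 3 were led by Col5a2 (43992A, 517 TPM), Col9a3 (R26P115, 832 TPM) and Col4a1 (43825B, 1396 TPM). The 5 intra-CNS tumors had no common leader. Col3a1 led in 38594A (141 TPM) and R26P98 (398 TPM), Col1a2 in 29048 (81.7 TPM), Col2a1 in 29050A (137 TPM) and Col4a1 in R26P87 (129 TPM).

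**Figure D2:**
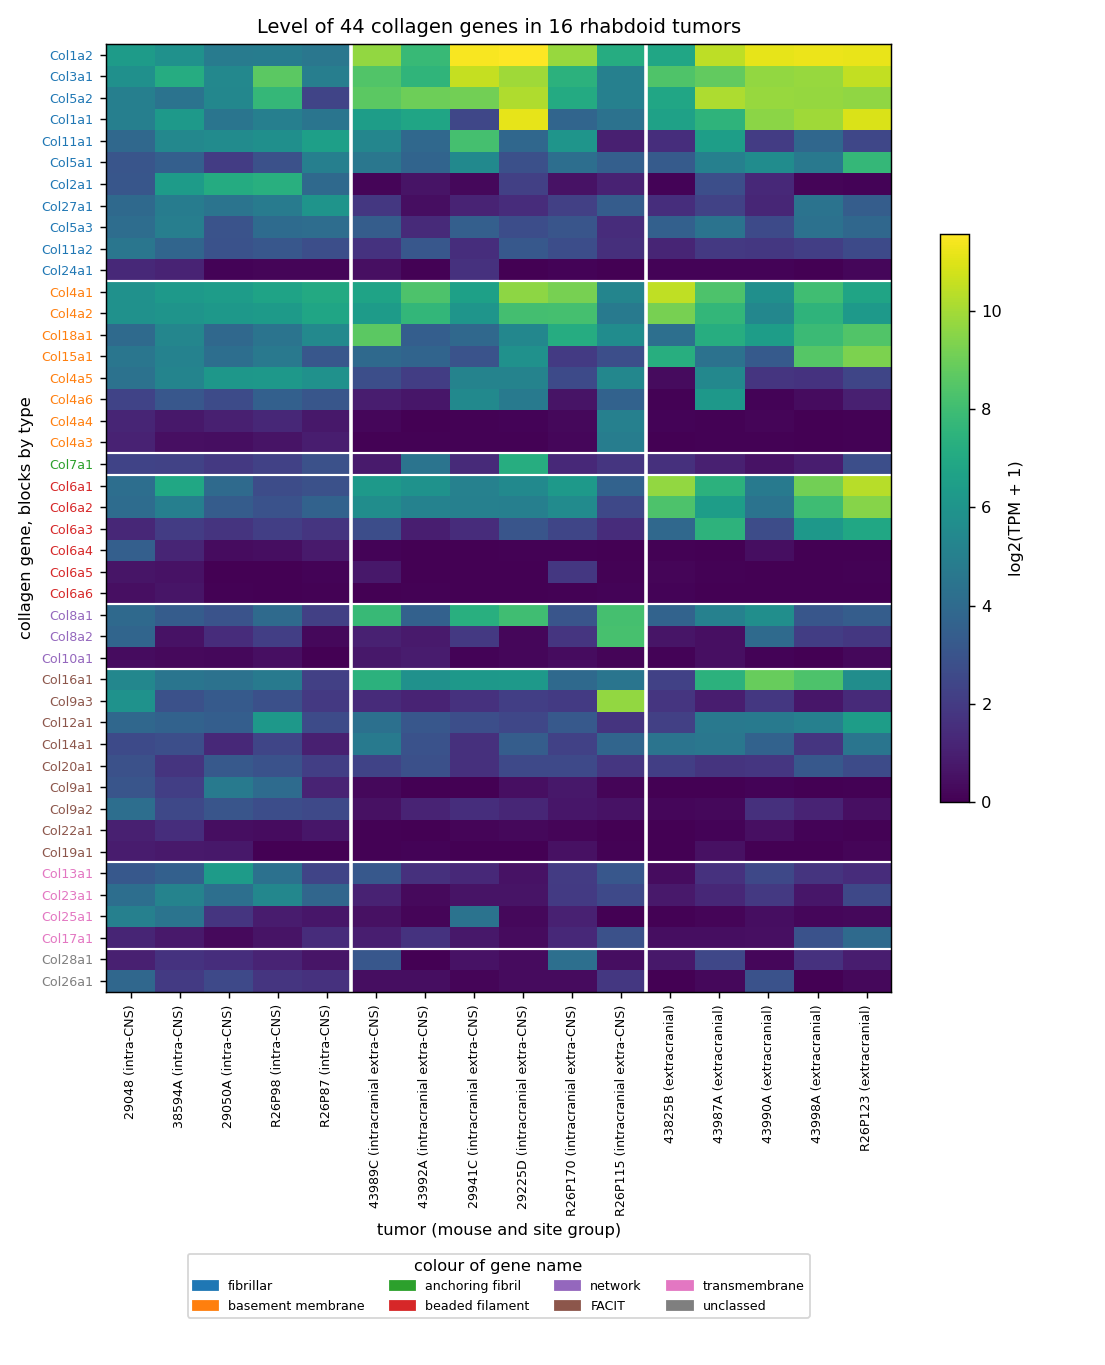
Heat map of log2(TPM + 1) for 44 collagen genes (rows, in blocks by type) in 16 tumors (columns, with lines between intra-CNS, intracranial extra-CNS and extracranial tumors). Col1a2, Col3a1, Col5a2 and Col1a1 are the bright fibrillar rows of the extra-CNS tumors, and the brightest FACIT cell is Col9a3 in R26P115 (832 TPM).

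The first comparison asked how collagen genes differed between intra-CNS and extra-CNS tumors. Of the 44 collagen genes, 8 were higher and 14 lower in intra-CNS tumors at an adjusted p below 0.05 and a log2 fold change beyond 1 (edgeR's quasi-likelihood test, Benjamini-Hochberg adjustment over all 21854 genes). In the same test 12.9% of all genes were called higher and 13.1% lower. The median log2 fold change was −1.63 over the 44 genes and −0.15 over all genes. Only 2 extra-CNS tumors (R26P170 and 43825B) had been induced at E6, the day of all intra-CNS tumors, and against these 2 alone 5 collagen genes were called higher and 5 lower, where 6.29% of all genes were called higher and 10.6% lower. With limma on log2(TPM + 1) 10 were called higher and 3 lower, where 18.7% of all genes were called higher and 6.06% lower.

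**Figure D3:**
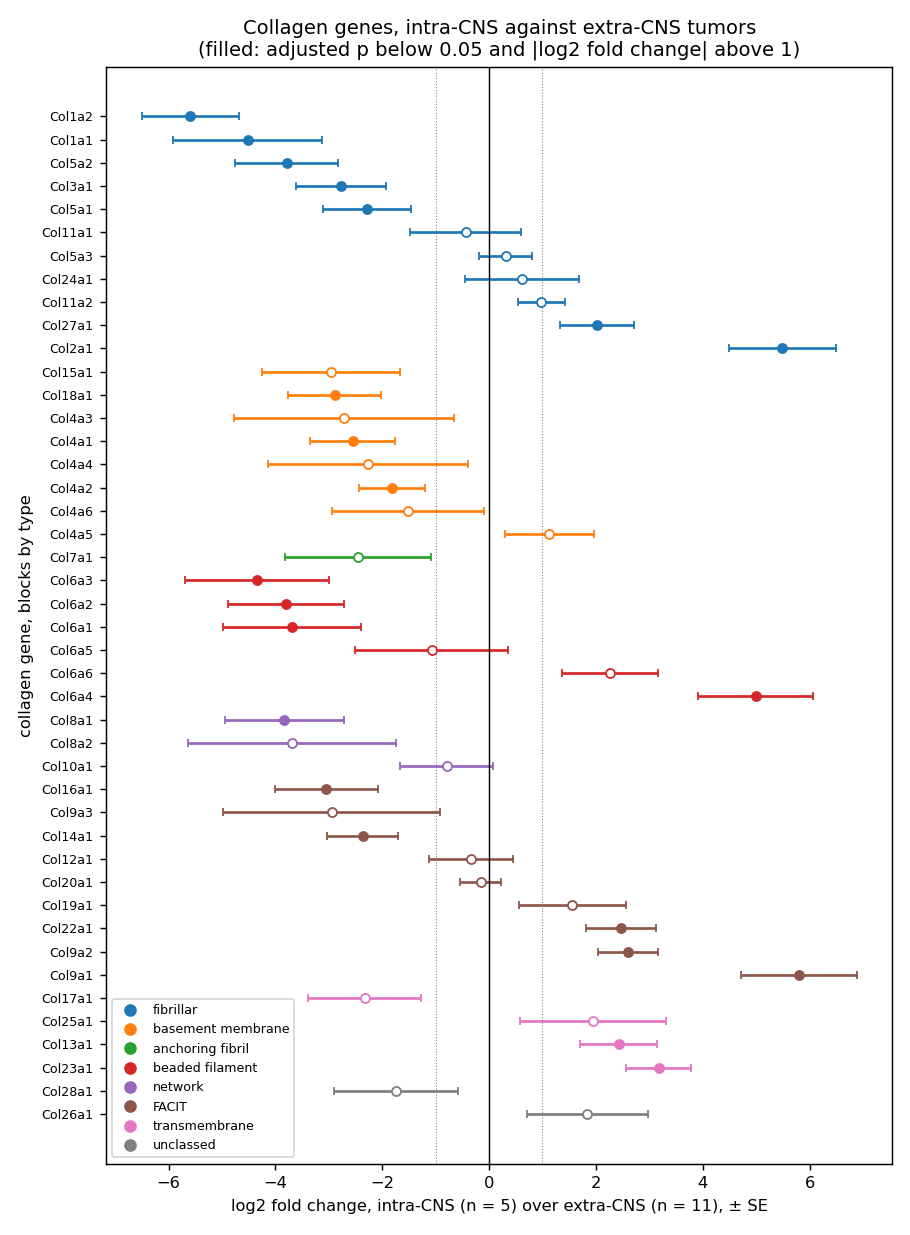
Log2 fold change of intra-CNS (n = 5) over extra-CNS (n = 11) tumors with its SE (horizontal axis) for 44 collagen genes (vertical axis, in blocks by type); filled points passed the test. Fibrillar genes lie on both sides, from Col1a2 at −5.59 to Col2a1 at 5.49, and the filled basement membrane points lie on the lower side.

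Among the 11 fibrillar genes, 5 fell and 2 rose in intra-CNS tumors, and 4 did not pass. Col1a2, the α2 chain of type I collagen (chr6:4504814-4541544 in GRCm38, plus strand), was at 22.9, 26.9, 28.3, 57.3 and 81.7 TPM in the intra-CNS tumors. In the extra-CNS tumors it was at 114 TPM in 43825B at the lowest, 1358 at the median and 3041 in 29225D at the highest. The groups did not overlap, and the log2 fold change was −5.59 ± 0.91 (SE; edgeR adjusted p = 0.00025). Among the 39 collagen genes that averaged 50 or more counts, Col1a2 was the only 1 lower without overlap in normalised counts, and 8.02% of all such genes were. Col1a1, the α1 chain (chr11:94936224-94953042, plus strand), was at 21.4 to 73.8 TPM in intra-CNS and 4.55 to 2283 TPM in extra-CNS tumors (log2 fold change −4.52 ± 1.39, SE; edgeR adjusted p = 0.020). Its groups overlapped, since 29941C, R26P170 and R26P115 lay below every intra-CNS tumor, and its call was lost without 29050A (edgeR adjusted p = 0.051). Of 6 osteoblast markers, from cells that make much type I collagen, 1 was called lower, and the highest sum, 914 TPM in 29941C, was nearly all Dmp1 (876 TPM). Without Dmp1 the sum was 37.9 TPM in 29941C, 28.0 to 286 TPM in intra-CNS and 19.9 to 153 TPM in extra-CNS tumors.

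Col5a2 and Col5a1 encode chains of type V collagen, which is incorporated into type I fibrils. Col5a2 was at 4.20 to 208 TPM in intra-CNS and 31.8 to 1187 TPM in extra-CNS tumors, a log2 fold change of −3.79 ± 0.96 (SE; edgeR adjusted p = 0.0063). Without R26P98, the highest intra-CNS tumor (the other 4 reached 40.1 TPM), it was −5.15. Col5a1 had a log2 fold change of −2.28 ± 0.82 (SE), and its call was lost in 8 of the 16 fits that left out 1 tumor (edgeR adjusted p 0.020 to 0.098), with values from −3.04 without R26P87 to −1.52 without R26P123. Col3a1, the chain of type III collagen of soft tissues, reached 398 TPM in the intra-CNS tumor R26P98 and was at 30.3 to 141 TPM in the other 4, against 32.4 to 1503 TPM in extra-CNS tumors (log2 fold change −2.77 ± 0.84 (SE; edgeR adjusted p = 0.018), and −3.78 without R26P98). Of 6 fibroblast markers 2 were also called lower in intra-CNS tumors, with summed levels of 64.9 to 824 TPM in intra-CNS and 144 to 2256 TPM in extra-CNS tumors. Thy1, which neurons also express, gave 740.2 TPM of the highest intra-CNS sum, in 29048, and without Thy1 the sums were 38.3 to 529 TPM and 84.0 to 1505 TPM, which still overlapped. The part of these markers in the result was not tested. All 6 macrophage markers were called lower as well, with summed levels of 712 to 1416 TPM and 1792 to 13951 TPM that did not overlap, and their part was not tested either.

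Col2a1 went the other way. This gene encodes the type II collagen of cartilage and vitreous (chr15:97975602-98004695, minus strand) and was at 7.66, 14.4, 80.0, 137 and 156 TPM in the intra-CNS tumors. It was at 0.0817 TPM at the lowest, 0.464 at the median and 5.89 TPM at the highest in the extra-CNS tumors. The groups did not overlap in TPM but did in normalised counts. The log2 fold change was 5.49 ± 1.0 (SE; edgeR adjusted p = 0.00064), or 6.17 without 43987A. Col27a1, a fibrillar collagen of growth plates, was at 14.6 to 62.2 TPM in intra-CNS and 0.344 to 20.5 TPM in extra-CNS tumors (log2 fold change 2.01 ± 0.69, SE). Its call was lost without 38594A, 43989C, R26P98 or R26P87 (edgeR adjusted p up to 0.12). Col11a1 and Col11a2, the type XI chains that accompany type II in cartilage fibrils, did not pass, with log2 fold changes of −0.44 and 0.98, and neither did Col5a3 (0.31) and Col24a1 (0.61). Without 43992A, Col11a2 was called higher (log2 fold change 1.16, edgeR adjusted p = 0.042). Of 6 chondrocyte markers 0 were called (edgeR; 2 had an unadjusted p below 0.05, Cnmd with a log2 fold change of 3.04 and Matn3 with −6.16). Their summed level was 1.82 to 35.2 TPM in intra-CNS tumors, highest in 29048 with Cnmd at 22.3 TPM, and 2.24 to 887 TPM in extra-CNS tumors, highest in 29225D and 43990A. The part of these markers in the Col2a1 values was not tested.

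Type IX collagen is the FACIT that decorates type II fibrils. Col9a1 (chr1:24177610-24252684, plus strand) was at 1.26, 3.38, 7.20, 15.7 and 26.3 TPM in the intra-CNS tumors and at 0 to 0.689 TPM in the extra-CNS tumors, of which 6 had 3 counts or fewer. Its log2 fold change was 5.79 ± 1.09 (SE; edgeR adjusted p = 0.00078), with 5.14 without 29050A and 6.52 without R26P170. Col9a2 was at 4.72 to 16.9 TPM in intra-CNS and 0.153 to 2.05 TPM in extra-CNS tumors (log2 fold change 2.6 ± 0.56, SE; edgeR adjusted p = 0.0021). Neither gene overlapped between the groups. The third chain, Col9a3, was at 2.76 to 59.5 TPM in intra-CNS tumors and at 0.650 to 3.45 TPM in 10 extra-CNS tumors, but at 832 TPM in R26P115. With that tumor the log2 fold change was −2.95 ± 2.03 (SE), and without it 2.57, where the call passed (edgeR adjusted p = 0.0029).

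Outside type IX, 1 FACIT gene was called higher and 2 lower. Col22a1, known from junctions such as muscle to tendon, was higher in intra-CNS tumors at low levels, 0.289 to 1.81 TPM against 0.0171 to 0.405 TPM. Col16a1, which is made by fibroblasts and smooth muscle, was at 3.63 to 40.3 TPM in intra-CNS and 3.65 to 463 TPM in extra-CNS tumors (log2 fold change −3.04 ± 0.96, SE). Against the 2 extra-CNS tumors induced at E6 the same value was 0.72, and the call was lost without 38594A, 29050A or R26P87 (edgeR adjusted p up to 0.053). Col14a1, which binds fibrils in skin and tendon, was lower, at 1.01 to 5.96 TPM against 2.08 to 25.6 TPM. Col12a1, Col19a1 and Col20a1 did not pass, with log2 fold changes of −0.33, 1.56 and −0.16.

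Of the 4 transmembrane genes, 2 rose in intra-CNS tumors and 2 did not pass. Col23a1 (chr11:51289920-51583918, plus strand) was at 13.0, 17.2, 18.0, 35.4 and 39.9 TPM in intra-CNS tumors and 0.242 to 4.79 TPM in extra-CNS tumors. The groups did not overlap, and the log2 fold change was 3.17 ± 0.60 (SE; edgeR adjusted p = 0.00085). Col9a1, Col9a2 and Col23a1 were higher without overlap in normalised counts, that is 3 of the 39 collagen genes that averaged 50 or more counts, and 6.94% of all such genes were. Col9a1, at 0 to 44 counts in extra-CNS tumors, reached that mean only through the intra-CNS tumors, so nothing is read from the count. Col13a1, a collagen of neuromuscular and cell-matrix junctions, was at 80.7 TPM in 29050A and 4.20 to 18.9 TPM in the other 4 intra-CNS tumors, against 0.298 to 8.24 TPM in extra-CNS tumors. Its call was lost without 29050A (edgeR adjusted p = 0.21). Col25a1, known from neurons, was at 0.606 to 31.8 TPM in intra-CNS tumors, at 20.3 TPM in 29941C and at 0.0243 to 1.11 TPM in the other extra-CNS tumors, and was called without 29941C (edgeR adjusted p = 0.0012). Col17a1, of epithelial hemidesmosomes, had a log2 fold change of −2.33 ± 1.05 (SE), did not pass and was highest in R26P123, where Krt5 and Krt14, keratins of basal epidermis, were at 232 and 599 TPM against at most 6.41 TPM in the other 15 tumors. The part of these keratins was not tested. Oligodendrocyte markers (5 of 6) and neuron markers (3 of 6) were called higher in intra-CNS tumors, with 29048 highest in both sums, and without 29048 and R26P115 10 collagen genes were called higher and 12 lower, where 14.2% of all genes were called higher and 12.9% lower.

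Promoter sequences are shown for Col9a1 and Col23a1, whose groups did not overlap, and for Col6a2, which is described below. They are the 250 bases before the RefSeq start site in GRCm38.p6, written 5′ to 3′ on the strand of the gene, and the GENCODE annotation has no exon within them. Capitals mark the GC box, GGGCGG or its reverse complement. Col9a1 is at chr1:24177360-24177609 (plus strand), Col23a1 at chr11:51289670-51289919 (plus strand) and Col6a2 at chr10:76623631-76623880 (minus strand).
Col9a1: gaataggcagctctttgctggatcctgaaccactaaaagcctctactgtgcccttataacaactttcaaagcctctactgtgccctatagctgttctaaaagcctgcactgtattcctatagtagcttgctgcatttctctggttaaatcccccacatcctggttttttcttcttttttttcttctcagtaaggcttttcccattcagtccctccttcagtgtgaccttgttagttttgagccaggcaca
Col23a1: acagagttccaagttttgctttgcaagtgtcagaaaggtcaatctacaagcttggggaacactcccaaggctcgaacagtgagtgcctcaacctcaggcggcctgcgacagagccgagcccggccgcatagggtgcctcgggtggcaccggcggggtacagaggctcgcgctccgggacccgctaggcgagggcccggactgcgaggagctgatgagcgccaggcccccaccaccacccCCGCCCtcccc
Col6a2: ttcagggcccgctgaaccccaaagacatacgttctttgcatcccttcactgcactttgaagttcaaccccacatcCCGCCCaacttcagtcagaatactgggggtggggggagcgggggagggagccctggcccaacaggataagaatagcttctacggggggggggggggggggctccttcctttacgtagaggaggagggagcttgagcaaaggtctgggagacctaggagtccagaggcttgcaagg

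The motifs searched on both strands were GGGCGG (the GC box), CCAAT (the CCAAT box), TATAAA (the TATA box) and ACAAT (the core of SOX factor sites), and matches of different motifs may overlap. The GC box was found 11 bases before the start of Col23a1 and 175 bases before that of Col6a2, and in 32.7% of all 32851 windows of the same length. The Col9a1 window held none of the 4 motifs. CCAAT was in 33.8%, TATAAA in 12.4% and ACAAT in 27.7% of all windows. RefSeq windows were matched for 35 of the 44 collagen genes, 38 windows in all, of which 22 held the GC box, 13 CCAAT, 5 TATAAA and 2 ACAAT. Col9a1 and Col23a1 differed in base composition, with 43.6% and 66.0% G or C.

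Among the 8 basement membrane genes, 3 fell in intra-CNS tumors and 0 rose. Col4a1 and Col4a2 encode the α1 and α2 chains of the type IV collagen found in nearly all basement membranes. They lie head to head on chromosome 8, with start sites at 11312826 (minus strand) and 11312805 (plus strand), so that their annotations overlap by 22 bases. Col4a1 was at 56.8, 74.5, 84.4, 103 and 129 TPM in intra-CNS tumors, and at 37.0 TPM in R26P115, 259 at the median and 1396 TPM in 43825B among extra-CNS tumors. The groups overlapped, and the log2 fold change was −2.56 ± 0.79 (SE; edgeR adjusted p = 0.021). Col4a2 moved less, with −1.81 ± 0.62 (SE; edgeR adjusted p = 0.033). Leaving out 29048 or 38594A ended both calls, and leaving out 29050A or R26P98 ended that of Col4a2 (edgeR adjusted p up to 0.052 for Col4a1 and 0.076 for Col4a2). Endothelial markers, whose cells lie on this membrane, were called lower for 2 of 6, with sums of 88.5 to 230.2 TPM in intra-CNS and 50.9 to 451 TPM in extra-CNS tumors, and 0 of 6 mural cell markers were called (edgeR; 0 had an unadjusted p below 0.05).

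Col18a1, whose product carries the fragment endostatin, was at 14.2 to 43.2 TPM in intra-CNS and 9.91 to 407 TPM in extra-CNS tumors (log2 fold change −2.89 ± 0.87, SE; edgeR adjusted p = 0.018). Col15a1, its close relative, was at 7.84 to 34.5 TPM and 2.85 to 629.9 TPM and did not pass (log2 fold change −2.96 ± 1.29, SE; edgeR adjusted p = 0.090). Col4a3 and Col4a4, chains of specialised membranes such as that of the kidney glomerulus, were at 0.362 to 1.43 TPM in intra-CNS tumors. In the extra-CNS tumors they were at 28.5 and 32.1 TPM in R26P115 and at or below 0.193 TPM in the other 10. Both were called higher in intra-CNS tumors without R26P115, with log2 fold changes of 3.24 and 3.13, and were at −2.72 and −2.26 with it, not called. Col4a5 was at 19.3 to 71.8 TPM in intra-CNS and 0.275 to 40.7 TPM in extra-CNS tumors, and neither it nor Col4a6 was called. Col7a1, the anchoring fibril of skin, was at 2.83 to 6.30 TPM in intra-CNS tumors, at 146 TPM in 29225D and 21.2 TPM in 43992A, and at 0.492 to 5.95 TPM in the other 9, and was not called. Epithelial markers were highest in the same 2 tumors, with sums of 3311 TPM in 29225D and 2097 TPM in 43992A, against 65.6 to 685 TPM in intra-CNS and 11.9 to 1667 TPM in the other extra-CNS tumors. Of the 6 markers Krt8 and Krt18 were called lower and 1 higher in intra-CNS tumors, and their part in the Col7a1 values was not tested.

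Type VI collagen links basement membranes to the surrounding matrix and is abundant around skeletal muscle. Its 3 classical chains were called lower in intra-CNS than in all extra-CNS tumors, and the extracranial tumors held the high values. The summed TPM of the 6 type VI genes averaged 52.8 ± 57.9 (SD, n = 5) in intra-CNS, 86.9 ± 42.3 (SD, n = 6) in intracranial extra-CNS and 929 ± 789 (SD, n = 5) in extracranial tumors. Col6a1 (chr10:76708792-76726168, minus strand) was at 5.49, 6.26, 15.1, 17.0 and 118 TPM in intra-CNS tumors, and at 11.5 TPM at the lowest, 74.3 at the median and 1304 TPM at the highest in extra-CNS tumors. The log2 fold change of −3.69 ± 1.29 (SE; edgeR adjusted p = 0.037) lost its call in 6 of the 16 fits without 1 tumor (29048, 29050A, R26P98, R26P87, 43825B or R26P123) and ranged from −5.23 without 38594A to −3.10 without R26P123. Col6a2 (chr10:76595762-76623630, minus strand) had a log2 fold change of −3.80 ± 1.08 (SE; edgeR adjusted p = 0.013) and kept its call in all 16 such fits, with −3.13 without R26P123. Col6a3 was at 1.47 to 3.50 TPM in intra-CNS and 0.959 to 177 TPM in extra-CNS tumors (log2 fold change −4.34 ± 1.35, SE; edgeR adjusted p = 0.021), lost its call without 29048 (edgeR adjusted p = 0.051) and had a log2 fold change of −3.64 without 43987A, its highest tumor. Against the 6 intracranial extra-CNS tumors alone, Col6a2 was called lower (log2 fold change −1.70, edgeR adjusted p = 0.034), and Col6a1 (−1.16, edgeR adjusted p = 0.29) and Col6a3 (−0.99, edgeR adjusted p = 0.15) were not. Against the 5 extracranial tumors alone all 3 were called, with log2 fold changes of −4.67 for Col6a1, −4.73 for Col6a2 and −5.41 for Col6a3. Over all collagen genes the fit against intracranial tumors called 7 higher and 8 lower, where 2365 of all 21418 genes were called higher and 2554, or 11.9%, lower. The fit against extracranial tumors called 11 higher and 14 lower, where 13.5% of all genes were called higher and 12.7% lower. Of 6 skeletal muscle markers 4 were also called lower in intra-CNS tumors, with sums of 2.69 to 7.28 TPM against 3.87 to 703 TPM. The sums were highest in R26P123 (703 TPM) and 43825B (159 TPM), which were also highest in Col6a1. They did not go together in every tumor, since 43998A had a sum of 16.4 TPM with Col6a1 at 547 TPM, and 43989C a sum of 91.2 TPM with Col6a1 at 75.7 TPM. The part of these markers in the type VI values was not tested.

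The other type VI chains were low. Col6a4 was at 10.4 TPM in 29048 and 0.294 to 1.31 TPM in the other 4 intra-CNS tumors, and at 0 to 0.353 TPM in extra-CNS tumors. It was called higher (log2 fold change 4.99 ± 1.07, SE; edgeR adjusted p = 0.0021), and its log2 fold change was 3.06 without 29048 and 5.99 without 43990A. Col6a5 and Col6a6 were at or below 2.63 TPM in every tumor and were not called, and Col6a6 was called higher in 3 of the 16 fits without 1 tumor (43825B, R26P98 or R26P115), with a log2 fold change of 2.54 without R26P115 (edgeR adjusted p = 0.038).

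Of the 3 network genes, 1 fell. Col8a1, known from vascular and corneal endothelium, was at 3.62 to 15.1 TPM in intra-CNS tumors and 7.23 to 283 TPM in extra-CNS tumors (log2 fold change −3.83 ± 1.11, SE; edgeR adjusted p = 0.015). Its partner Col8a2 was at 289 TPM in R26P115 and 0.160 to 15.2 TPM in the other 15 tumors. The log2 fold change of Col8a2 was −3.69 ± 1.95 (SE) with R26P115 and −0.16 without it, and it was not called in either fit. Col10a1, the collagen of hypertrophic cartilage, was at or below 0.840 TPM in every tumor and was not called. Neither were the 2 genes outside these types, Col26a1 and Col28a1, with log2 fold changes of 1.84 ± 1.13 and −1.74 ± 1.16 (SE). Without 43990A, Col26a1 was called higher (log2 fold change 2.91, edgeR adjusted p = 0.038).

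Partner chains, which assemble into 1 molecule, were compared by the log2 ratio of their levels (TPM + 1 of each). Type I collagen is normally built from 2 α1 chains and 1 α2 chain. In the intra-CNS tumors the log2 ratio of Col1a1 to Col1a2 was −1.39 in 29048 and between −0.31 and 0.36 in the other 4. In the extra-CNS tumors it ranged from −9.0 to −0.24. In 29941C Col1a1 was at 4.55 TPM (1299 counts) and Col1a2 at 2849 TPM (715797 counts), a 513-fold difference in TPM + 1. In R26P170 they were at 12.6 and 888 TPM, in 43989C at 86.5 and 823 TPM, in 43987A at 181 and 1358 TPM and in R26P115 at 19.8 and 143 TPM. By contrast they were at 2283 and 3041 TPM in 29225D, 1955 and 2334 TPM in R26P123 and 96.1 and 114 TPM in 43825B. Col1a2 was above Col1a1 in 11 of 11 extra-CNS tumors and in 3 of 5 intra-CNS tumors.

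The mean log2 ratio was −0.27 ± 0.67 (SD, n = 5) in intra-CNS and −2.62 ± 2.73 (SD, n = 11) in extra-CNS tumors. The difference of 2.35 had p = 0.018 in a two-sided exact permutation test over 4368 splits, and 0.067 after adjustment over the 11 pairs compared (exact test). The adjusted exact p ranged from 0.016 to 0.14 when single tumors were left out, and was 0.016 without 29048 and 0.042 without 43825B or R26P123. Across the 11 extra-CNS tumors the levels of Col1a1 and Col1a2 had a Pearson r of 0.41 (permutation p = 0.20, adjusted 0.34) and a Spearman rho of 0.45 (permutation p = 0.17, adjusted 0.32). Without 29225D and 29941C, the 2 farthest from the median of Col1a1, r was 0.66. Without 29941C alone it was 0.72, with an adjusted permutation p of 0.042. Within the 6 intracranial extra-CNS tumors r was 0.20, and within the 5 extracranial tumors it was 0.82, and neither was tested.

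**Figure D4:**
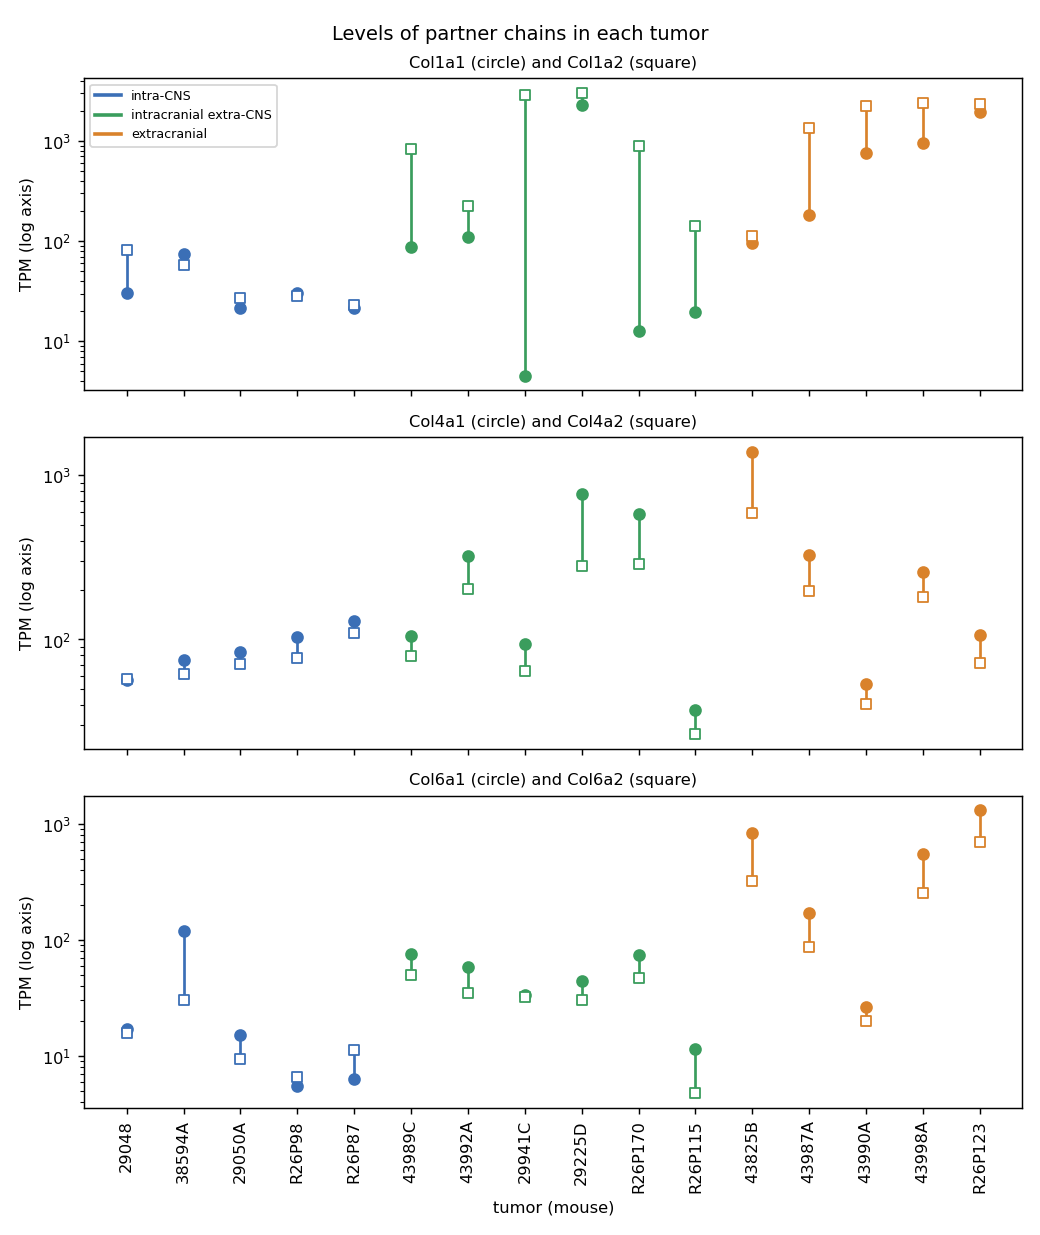
TPM on a log axis of partner chains in each of 16 tumors (horizontal axis): Col1a1 and Col1a2, Col4a1 and Col4a2, and Col6a1 and Col6a2, with the chains of a tumor joined by a line. The line is longest for type I in 29941C (4.55 and 2849 TPM).

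The other 10 pairs were of both kinds. The 5 pairs Col5a1 and Col5a2, Col8a1 and Col8a2, Col11a1 and Col11a2, Col9a1 and Col9a2, and Col9a2 and Col9a3 did not pass for the correlation, with r of 0.41, 0.33, 0.08, -0.0022 and −0.16 over the 11 extra-CNS tumors (adjusted permutation p 0.34 to 0.995). Their widest log2 ratios were −9.15 for Col9a2 to Col9a3 in R26P115, 7.83 for Col8a1 to Col8a2 and −7.40 for Col5a1 to Col5a2, both in 29225D. The 5 pairs that follow passed. Col4a1 and Col4a2 had an r of 0.99 over the 11 extra-CNS tumors (permutation p = 1e-05, the smallest these permutations can give, adjusted 5.5e-05) and a rho of 0.97 with the same permutation p, and r was 0.98 without R26P115 and 43825B and 0.99 within the 6 intracranial extra-CNS tumors. Their log2 ratio differed between groups, with a mean of 0.23 ± 0.16 (SD, n = 5) in intra-CNS and 0.72 ± 0.36 (SD, n = 11) in extra-CNS tumors. The intra-CNS values reached from −0.01 to 0.42 and the extra-CNS values from 0.39 to 1.46, a slight overlap (difference −0.49, exact permutation p = 0.0014, adjusted 0.0076). Col6a1 and Col6a2, neighbours 85.2 kb apart on chromosome 10, had an r of 0.99 and a rho of 0.99 (permutation p = 1e-05 for each, adjusted 5.5e-05), an r of 0.98 without R26P123 and 43825B and of 0.96 within the 6 intracranial extra-CNS tumors. Their log2 ratio had a mean of 0.34 ± 1.02 (SD, n = 5) in intra-CNS and 0.77 ± 0.38 (SD, n = 11) in extra-CNS tumors, and the difference did not pass (exact permutation p = 0.23, adjusted 0.32).

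Col6a1 and Col6a3 had an r of 0.76 (permutation p = 0.0085, adjusted 0.019), a rho of 0.74 (permutation p = 0.012, adjusted 0.026) and an r of 0.77 without R26P123 and 43825B. Within the 6 intracranial extra-CNS tumors their r was lower, at 0.40, and within the 5 extracranial tumors it was 0.51. Col4a5 and Col4a6, which lie head to head on the X chromosome 1308 bases apart, had an r of 0.93 (permutation p = 6.0e-05, adjusted 0.00022), a rho of 0.92 (permutation p = 9.0e-05, adjusted 0.00033), an r of 0.94 without 43987A and R26P115 and of 0.94 within the 6 intracranial extra-CNS tumors. Their log2 ratio was 2.04 to 3.48 in intra-CNS and −0.77 to 1.99 in extra-CNS tumors, with no overlap (difference 1.60, exact permutation p = 0.00046, the smallest this design allows, adjusted 0.0050). With a pseudocount of 0.1 the difference was 1.06 and did not pass (adjusted exact p = 0.26), and Col4a6 was at or below 0.894 TPM in 6 extra-CNS tumors. Col4a3 and Col4a4 had an r that rounds to 1 and a rho of 0.84 (permutation p = 0.0024, adjusted 0.0066). The size of r rested on R26P115 and R26P170, and r was 0.45 without them. In all, 5 of 11 pairs passed for the correlation and 2 of 11 for the ratio.

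The second comparison asked whether site mattered among the extra-CNS tumors. Between 6 intracranial and 5 extracranial tumors 0 of the 44 collagen genes were called by edgeR, where 1 of 21261 genes was called in all (0.00470%). At an unadjusted p below 0.05 there were 15 of the 44, 8 higher and 7 lower in intracranial tumors, and 12.3% of all genes. Without R26P115 there were 12, 6 higher and 6 lower, and 11.2% of all genes. DESeq2 called 5, of which Col8a1 was higher and Col6a1, Col6a2, Col6a3 and Col15a1 lower in intracranial tumors, with 2.30% of all genes called. It gave no p for Col4a3, Col4a4, Col8a2, Col9a3, Col25a1 and Col26a1, which were therefore not tested by DESeq2. limma on log2(TPM + 1) called 0 collagen genes and 0.00471% of all genes.

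The 3 classical type VI chains were the collagen genes of lowest unadjusted p. Col6a3 was at 5.59, 0.959, 1.73, 7.19, 4.35 and 1.81 TPM in the intracranial tumors 43989C, 43992A, 29941C, 29225D, R26P170 and R26P115. It was at 14.0, 177, 5.36, 70.0 and 116 TPM in the extracranial tumors 43825B, 43987A, 43990A, 43998A and R26P123. Only 43990A, whose site is given in 2 ways, lay within the intracranial range. The log2 fold change was −4.42 ± 0.87 (SE; edgeR adjusted p = 0.34, DESeq2 adjusted p = 1.8e-05). Col6a1 was at 11.5 to 75.7 TPM in intracranial and 26.3 to 1304 TPM in extracranial tumors (log2 fold change −3.53 ± 0.81, SE; edgeR adjusted p = 0.34, DESeq2 adjusted p = 0.00083). Col6a2 had a log2 fold change of −3.04 ± 0.77 (SE; edgeR adjusted p = 0.34, DESeq2 adjusted p = 0.0047). With 43990A counted as intracranial, the edgeR adjusted p was 0.089 for Col6a1 and Col6a3 and 0.15 for Col6a2. Over the fits without 1 tumor the edgeR adjusted p of the 3 genes ranged from 0.21 to 0.49.

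**Figure D5:**
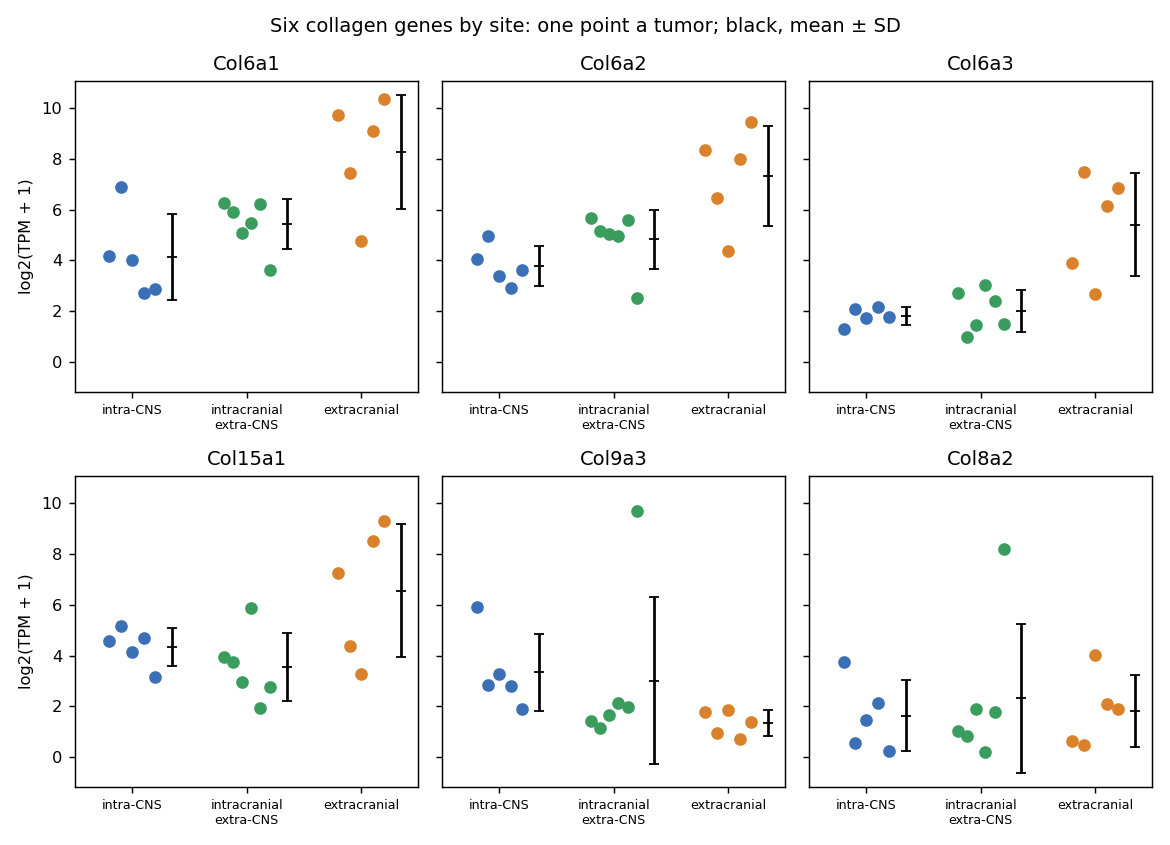
Log2(TPM + 1) (vertical axis) of 6 collagen genes in intra-CNS, intracranial extra-CNS and extracranial tumors; each point is 1 tumor, and the bars are the mean and SD. Col6a1, Col6a2 and Col6a3 have their highest points in extracranial tumors, and the single high points of Col9a3 (832 TPM) and Col8a2 (289 TPM) are R26P115.

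Skeletal muscle markers were also highest in extracranial tumors. Their summed level was 3.87 to 91.2 TPM in intracranial and 12.8 to 703 TPM in extracranial tumors, with R26P123 highest. Of the 6 markers 0 were called between the sites (edgeR; 1 had an unadjusted p below 0.05). Col15a1 was at 153, 19.8, 8.67, 368 and 629.9 TPM in the extracranial tumors, in the order above, and at 2.85 to 56.9 TPM in the intracranial tumors (log2 fold change −3.86 ± 1.08, SE; edgeR adjusted p = 0.34, DESeq2 adjusted p = 0.0060). Of the genes with higher values in intracranial tumors, Col4a3, Col4a4 and Col9a3 were highest in R26P115, with log2 fold changes of 7.56, 6.63 and 6.61 with it and of 1.30, 0.73 and 0.49 without it, and Col7a1 in 29225D and 43992A. Col8a1 was high in 4 of the 6 intracranial tumors, at 222, 157, 262 and 283 TPM in 43989C, 29941C, 29225D and R26P115, and at 7.61 to 52.0 TPM in extracranial tumors (log2 fold change 2.84 ± 0.96, SE; edgeR adjusted p = 0.35, DESeq2 adjusted p = 0.037). Col1a2 ranged from 143 to 3041 TPM in intracranial and from 114 to 2401 TPM in extracranial tumors and had no call by site.

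The third comparison asked whether the day of tamoxifen mattered among the extra-CNS tumors, with 3 tumors induced at E6 or E7 (R26P170, 43825B and 29225D) and 8 at E8. The 3 early tumors came from mice aged 170, 210 and 147 days, and the 8 late ones from mice aged 52 to 123 days. Day and age therefore cannot be told apart here. Of the 44 collagen genes 0 were called by edgeR, with 0% of all genes called. At an unadjusted p below 0.05 there were 6 of the 44, 3 higher and 3 lower in the early group, and 3.51% of all genes. DESeq2 called 0 collagen genes and 0.183% of all genes, and limma 0 collagen genes and 0% of all genes. DESeq2 gave no p for Col6a1, Col7a1, Col8a2 and Col25a1, which it therefore did not test. The collagen gene of lowest p was Col4a1, at 579, 769 and 1396 TPM in the 3 early tumors and at 37.0 to 327 TPM in the 8 late ones (log2 fold change 2.45 ± 0.62, SE; edgeR adjusted p = 0.91). Col4a2, which went with Col4a1 over these 11 tumors (r of 0.99), was at 279, 289 and 587 TPM against 26.4 to 204 TPM (log2 fold change 1.79 ± 0.58, SE; edgeR adjusted p = 0.91). The share of all genes whose early and late values do not overlap was not counted, so nothing is read from these ranges. With site as a covariate the log2 fold changes were 2.47 and 1.81.

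A set of 44 genes that act on collagen was read beside the collagen genes. In intra-CNS tumors 20 of them were lower and 3 higher (edgeR), where 13.1% of all genes were called lower and 12.9% higher, with a median log2 fold change of −1.40 against −0.15 over all genes. With limma on log2(TPM + 1) 10 were called lower and 3 higher, where 6.06% of all genes were called lower and 18.7% higher. Among 18 genes of chain modification and folding, 7 were lower and 1 higher. Crtap, a subunit of the complex that hydroxylates prolines on the chains, was at 15.5 to 35.1 TPM in intra-CNS and 68.4 to 251 TPM in extra-CNS tumors with no overlap (log2 fold change −3.24 ± 0.30, SE; edgeR adjusted p = 3.1e-06). Its partner Ppib, a cyclophilin, was at 392 to 597 TPM and 493 to 1235 TPM, and P4hb, the β subunit of prolyl 4-hydroxylase, at 248 to 401 TPM and 330.4 to 2031 TPM. Their log2 fold changes were −1.40 ± 0.19 and −1.97 ± 0.29 (SE). The call of Serpinh1, the collagen chaperone HSP47, was lost without 29048, 38594A, 43990A, 29225D or R26P123, where its log2 fold change came within 1 of 0. Over the 16 fits without 1 tumor its edgeR adjusted p reached 0.061.

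Of 5 crosslinking enzymes 4 were lower. Lox, which oxidises lysines so that fibrils crosslink, was at 4.12 to 24.2 TPM in intra-CNS and 9.32 to 756 TPM in extra-CNS tumors (log2 fold change −5.23 ± 1.06, SE; edgeR adjusted p = 0.0013). Loxl3 was at 1.15 to 4.82 TPM and 15.3 to 805 TPM with no overlap (log2 fold change −6.63 ± 1.35, SE), and Loxl2 had a log2 fold change of −3.77 ± 0.89 (SE). Of 8 genes of propeptide processing, Adamts14, a procollagen N-proteinase, and Pcolce, an enhancer of C-propeptide cleavage, were lower, and Tll2 was higher at levels of at most 1.81 TPM. The groups overlapped for Adamts14, at 0.445 to 1.82 TPM in intra-CNS and 0.254 to 203 TPM in extra-CNS tumors. Pcolce was at 941 TPM in R26P115 and 5.90 to 164 TPM in the other extra-CNS tumors, against 4.24 to 36.9 TPM in intra-CNS tumors. Its call (log2 fold change −3.83 ± 1.39, SE; edgeR adjusted p = 0.043) was lost in 8 of the 16 fits without 1 tumor, and without R26P115 the log2 fold change was −2.29 (edgeR adjusted p = 0.058). The call of Tll2 was lost without R26P87 (edgeR adjusted p = 0.068). Pcolce2, the relative of Pcolce, was at 151 TPM in R26P115, 0.169 to 2.68 TPM in the other extra-CNS tumors and 2.51 to 23.4 TPM in intra-CNS tumors. It was not called with all tumors (log2 fold change −1.01) and was called higher without R26P115 (log2 fold change 3.17, edgeR adjusted p = 0.0020). The procollagen N-proteinase Adamts3 was called higher without R26P123 (edgeR adjusted p = 0.0060). Of 5 collagen-binding proteoglycans and glycoproteins, 4 were lower. Sparc had a log2 fold change of −2.07 ± 0.39, Lum of −6.43 ± 1.54 and Dcn of −5.02 ± 1.38 (SE). Sparc was at 263 to 1176 TPM in intra-CNS and 593 to 3073 TPM in extra-CNS tumors. Lum was at 1.24 to 9.07 TPM and 0.642 to 1287 TPM, and Dcn at 14.2 to 53.0 TPM and 18.2 to 5750 TPM. The groups overlapped for each of these genes. The call of Bgn, the fourth, was lost without 29048, 38594A, 29050A or R26P98 (edgeR adjusted p up to 0.078).

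The receptors were divided, with 1 of 8 higher and 3 lower. Ddr1, a collagen receptor tyrosine kinase of epithelia and glia, was higher in intra-CNS tumors, at 255 to 581 TPM against 9.90 to 151 TPM with no overlap (log2 fold change 2.55 ± 0.50, SE; edgeR adjusted p = 0.0011). Its relative Ddr2, known from mesenchymal cells, was lower, at 1.71 to 7.02 TPM against 0.321 to 173 TPM (log2 fold change −4.82 ± 1.26, SE; edgeR adjusted p = 0.0077). Mrc2, a receptor for collagen uptake, was also lower (log2 fold change −1.90 ± 0.51, SE). Lair1, an inhibitory collagen receptor of leukocytes, was not called with all tumors (log2 fold change −1.02) and was called lower without 43998A or without R26P115 (log2 fold change −1.12 and edgeR adjusted p = 0.042 in the latter), and the integrin chain Itga10 was called lower without 43990A or without R26P98. Between the 2 sites of extra-CNS tumors 0 of the 44 genes were called by edgeR (5 had an unadjusted p below 0.05, as did 12.3% of all genes) and 1 by DESeq2, where 2.30% of all genes were called.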

How the data were processed

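The data were bulk, stranded mRNA-seq libraries of 16 tumors, 1 per mouse (mixed background), with 100 base paired-end reads. The submitters' processing notes name Trim Galore, FastQC, STAR 2.5.3a and Picard and the build mm10; the gene annotation and the strand setting of the counting are not given in the sources used here. The authors deposited a table of counts, which are whole and not normalized, for 24982 genes, and a table of TPM for 24951 genes, scaled by the authors for gene length and sequencing depth. Replicates were not pooled, and the tumors came from separate mice.

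Groups followed the labels. All 21854 genes above 0 in 1 or more tumors entered edgeR 4.0.16 (TMM, glmQLFit, glmQLFTest; R 4.3.3). Calls needed, after Benjamini-Hochberg adjustment, an adjusted p below 0.05 and an absolute log2 fold change above 1. Fits by site and day used the 11 extra-CNS tumors alone. Levels are TPM, and ratios and correlations used a pseudocount of 1, exact permutation tests or 100000 permutations (scipy 1.17.1, numpy 2.4.6, Python 3.11.15), adjusted over the 11 pairs. Alternatives were DESeq2 1.42.0, limma 3.58.1 on log2(TPM + 1), size factors of DESeq2, filters, covariates and the omission of tumors. Non-overlap was counted on normalised counts of genes that averaged 50 or more. The edgeR code was tested on simulated data. Tables were handled with pandas 2.3.3 and figures drawn with matplotlib 3.10.9. Gene positions came from GENCODE release 21 (GRCm38), which held all 44 collagen genes, and promoters from RefSeq.

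The members, the lists of collagen types, pathway genes and markers, and the tests were chosen with earlier results of these data known. Genes were named by a rule: in each type the 2 of highest mean TPM and the 1 of lowest p, up to 6 of largest change called in each direction, those called by edgeR by site or day, and up to 3 called genes of lowest p in each list of genes that act on collagen. Other collagen genes were named after their values were seen, to account for every type. A floor of 3 counts corresponded to 0.0272 to 0.168 CPM. Reads carry no molecular identifiers, so intervals and floors cover counting error only.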

Additional observations from a re-analysis of the deposited data

Results flagged for a closer look

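Among groups of 5 or 6 tumors, 13 of 129 sets of values held a tumor far from the rest by Dixon's test at the 95% level. Chance alone marks about 1 in 20 where sets are independent and values normal. Some sets shared genes, such as Col9a3 and its ratio to Col9a2, so no excess is read from the count. On the log2(TPM + 1) scale, R26P115 was highest among the intracranial extra-CNS tumors for Col9a3 (9.70, next 2.15), Col8a2 (8.18, next 1.90) and Col26a1 (1.88, next 0.45), and lowest for Col6a2 (2.52, next 4.97). In the same tumor the log2 ratio of Col9a2 to Col9a3 was −9.15 (next −1.30), and the log2 of the summed type VI TPM + 1 was 4.26 (next 6.09). The extracranial tumor 43825B was lowest for Col1a2 (6.84, next 10.4) and Col5a2 (6.84, next 9.67). The extracranial tumor 43990A was highest for Col26a1 (2.92, next 0.27), Col22a1 (0.49, next 0.13) and Col6a4 (0.44, next 0.06). Among the intra-CNS tumors 38594A was highest for Col1a1 (6.23, next 4.98) and 29048 for Col6a4 (3.51, next 1.21). No explanation of these values was tested.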

How the results depend on the processing

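No paired analysis was possible because no mouse gave tumors to both groups, and replicate numbers only name tumors. In the comparison of intra-CNS with extra-CNS tumors, 22 collagen genes were called. With limma on log2(TPM + 1) there were 13, of which 3 were lower, and 13 of the genes that act on collagen in place of 23. With tumors induced at E6 alone there were 10, 5 higher and 5 lower, from 2 extra-CNS tumors. Among intracranial tumors alone 7 were higher and 8 lower in place of 8 and 14. Leaving out single tumors gave 16 to 26 called, 7 to 12 higher and 9 to 14 lower, with the fewest lower without 29048 or 29050A. Of the 8 higher genes 6 stayed called in all 16 such fits, and of the 14 lower genes 7 did. In all 12 other alternatives Col2a1, Col23a1, Col9a2 and Col1a2 stayed called. By site, DESeq2 called 5 collagen genes (1 higher and 4 lower) and 1 gene that acts on collagen where edgeR called 0. For partner ratios, a pseudocount of 0.1, or counts in place of TPM (chosen after the data were seen), left 1 pair in place of 2, and leaving out single tumors gave 2 to 3. For partner correlations the latter gave 4 to 6 pairs.

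Directions turned for genes that were not called, except Col16a1. The log2 fold change of Col16a1 became 0.72 with tumors induced at E6 alone, where Col7a1 was at 0.63, Col8a2 at 0.71 and Col9a3 at 2.004. Col9a3 was at 2.58 with DESeq2, 1.10 with limma, 2.03 with mouse name scheme (numbered or R26P) as covariate, 2.84 against extracranial tumors alone, 1.09 without 29048 and R26P115 and 2.55 without R26P115 and R26P123, and leaving out single tumors gave −4.42 (without 29048) to 2.57 (without R26P115). Col7a1, at −2.45 in edgeR with all tumors, was at 0.16 with limma and 0.52 against extracranial tumors alone. The log2 ratio of Col6a1 to Col6a2 differed by 0.16 among numbered mice alone. Within the R26P mice alone, 2 against 3, no ratio was tested, since 10 splits allow no exact p below 0.1. The causes were not tested. With DESeq2's size factors the median log2 fold change of all genes was −0.12 in place of −0.15, and 22 collagen genes were called. With limma that median was 0.20, a shift of all genes toward the intra-CNS side.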

Other observations

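Other skeletal genes marked single tumors. Matn3, a cartilage matrix protein, was at 864 TPM in 29225D and 774 TPM in 43990A and at 0 to 16.9 TPM in the other 14 tumors. Dmp1, a matrix protein of osteocytes and dentin, was at 512 TPM in 43989C, 876 TPM in 29941C and 93.0 TPM in 43987A and at 0.0678 to 9.41 TPM in the other 13. These 3 tumors had log2 ratios of Col1a1 to Col1a2 of −3.23, −9.0 and −2.90, while R26P170, with Dmp1 at 9.41 TPM, had −6.03. Both genes were singled out after their values were seen, and their relation to the type I chains was not tested.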
